A study of Rattus norvegicus with 8 samples.

Results

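The granins and the enzymes that process prohormones were followed in the pituitary of nursing rats. These 10 genes were Chga, Chgb, Scg2, Scg3, Scg5, Pcsk1n, Cpe, Pam, Vgf and Ptprn. They were taken by gene name from the array annotation. Each was read by 1 probe on 1 spot, and all 10 were among the 17361 genes tested. Whole pituitaries came from Wistar dams on postpartum day 7, of which 4 were controls and 4 had been exposed to TCDD, a dioxin that activates the aryl hydrocarbon receptor. The study asks what dioxin does to pituitary messenger RNA in mothers. Dose, day of exposure and the treatment of control dams are not in the labels used here. The design text gives 4 rats a group without saying whether each array is a separate rat, and p-values therefore measure only how these samples vary, which may be technical. In whole tissue, fewer cells of a type and less RNA per cell cannot be told apart.

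Granins are acidic secretory proteins that gather with peptide hormones in the trans-Golgi network and help to form dense-core granules, the stores from which endocrine cells release hormone on demand. Inside the granule, prohormone convertases cut the precursors at pairs of basic residues. Carboxypeptidase E then trims the exposed basic residues, and peptidylglycine alpha-amidating monooxygenase converts a terminal glycine to an amide. The anterior and intermediate pituitary depend on this route for the products of Pomc and for other hormones, and several granins are themselves cut into bioactive peptides.

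No difference between TCDD-exposed and control dams was detected in any of the 10 transcripts. With limma and Benjamini-Hochberg adjustment over all genes, 0 of 10 passed an adjusted p of 0.05, and 0 of 10 had an unadjusted p under 0.05. Of all genes tested, 0.0806% passed the adjusted threshold and 10.7% the unadjusted one. The 2 groups overlapped in all 10 genes, while they did not overlap in 7.10% of all genes. The folds between group means ran from 1.00 to 1.12. In 9 of the 10 genes the 95% interval of the change lay inside a 1.5-fold difference in either direction, and Vgf was the exception. In 8 of the 10 it lay inside 1.3-fold.

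**Figure D1:**
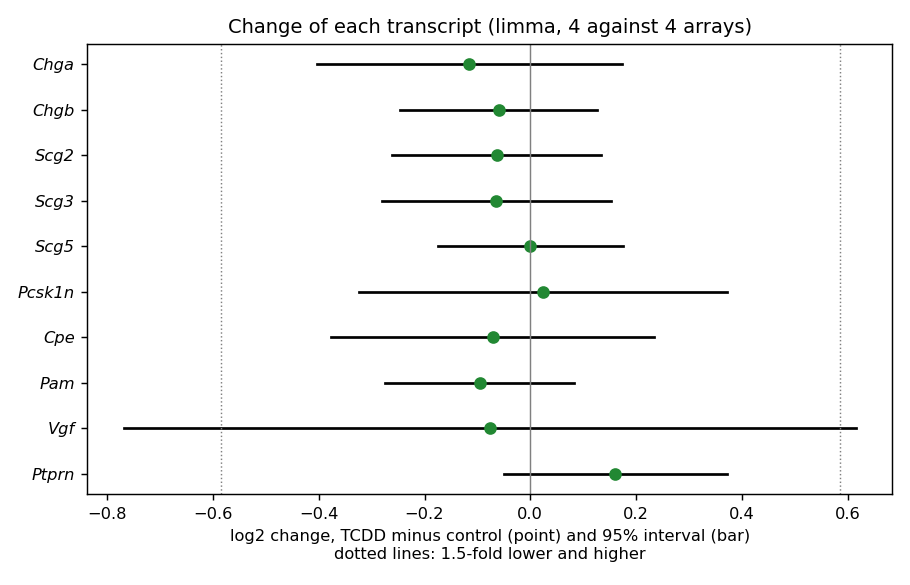
The log2 change of each of the 10 transcripts, TCDD minus control, is plotted as a point with its 95% interval from limma (4 against 4 arrays), and dotted lines mark 1.5-fold. Every interval crosses 0, and that of Vgf, from -0.77 to 0.62, is the widest.

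Values below are log2 processed signals relative to the 75th percentile of signal on the same array, so a difference of 1 is a doubling. Slide 1 carried the controls and slide 2 the TCDD samples, and the scan dates in the headers split the same way. An effect of slide or scan and one of TCDD therefore cannot be told apart. The 75th percentile ran from 765 to 932 over the arrays, with 71.1% to 73.9% of spots called well above background. All 10 genes were well above background on all 8 arrays. Their processed intensities ran from 1108 to 222044, no spot carried the saturation flag and 0 pixels in their spots were saturated. The headers mark the scans as extended dynamic range. Whether signal stays proportional to RNA in the brightest spots was not tested. As a check on the tissue, the hormone genes Prl, Gh1 and Pomc stood at 8.17, 8.49 and 8.63 in controls.

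The probes of Pcsk1n and Ptprn are shown because their mapped span is longer than the 60 bases of the probe, 466 and 225 bases, so each pairs whole only with spliced RNA. They are given 5′ to 3′ as the array files hold them.
Pcsk1n probe: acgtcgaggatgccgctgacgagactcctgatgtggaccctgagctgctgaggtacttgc
Ptprn probe: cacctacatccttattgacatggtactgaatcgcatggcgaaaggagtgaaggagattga

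The Pcsk1n probe maps to chrX:26614910-26615375 on the minus strand, and the Ptprn probe to chr9:74528459-74528683 on the minus strand, in the rn4 build that the headers name. The other probes cover 60 bases in 1 piece: Chga at chr6:126832496-126832555, Chgb at chr3:120584813-120584872, Scg2 at chr9:78762735-78762794, Scg3 at chr8:80496358-80496417 and Scg5 at chr3:99629194-99629253. Cpe lies at chr16:26750109-26750168, Pam at chr9:96977460-96977519 and Vgf at chr12:20906265-20906324. Exons were not assigned, since no annotation of that build was used here.

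RefSeq promoter sequences of the GRCr8 assembly were matched for 9 of the 10 genes, and the 250 bases before the start were searched on both strands for GCGTG, the core of the dioxin response element, and TGACGTCA, the cAMP response element, which do not overlap in these windows. The GCGTG core was found in 4 of the 9, namely Scg3, Cpe, Vgf and Ptprn, and in 25.9% of 33469 promoters. TGACGTCA was found in 2 of the 9, Scg2 and Vgf, and in 1.59% of all promoters. Both windows are shown because they hold this element, with motif matches in capitals. A match is a description of the letters and does not show binding.
Scg2 promoter, chr9:88256867-88257116, minus strand: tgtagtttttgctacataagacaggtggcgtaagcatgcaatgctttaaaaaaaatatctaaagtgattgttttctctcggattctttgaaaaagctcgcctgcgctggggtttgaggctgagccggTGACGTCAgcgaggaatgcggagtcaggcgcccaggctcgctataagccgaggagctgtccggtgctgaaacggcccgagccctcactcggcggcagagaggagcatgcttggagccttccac
Vgf promoter, chr12:25277021-25277270, minus strand: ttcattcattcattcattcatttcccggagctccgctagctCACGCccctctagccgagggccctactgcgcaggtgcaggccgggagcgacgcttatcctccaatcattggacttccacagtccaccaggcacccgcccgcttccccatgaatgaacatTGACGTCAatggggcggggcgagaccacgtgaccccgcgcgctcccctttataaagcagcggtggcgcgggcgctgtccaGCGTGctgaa

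The first base of TGACGTCA lies 123 bases before the start in Scg2 and 90 bases before it in Vgf. In Vgf the GCGTG core occurs 10 bases before the start on the plus strand of the gene and 209 bases before it on the other strand, where it reads CACGC in the letters above. The values of these 2 genes follow with the rest.

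Among the granins proper, Chga encodes chromogranin A, the prohormone of pancreastatin and other peptides. Its level was 4.26, 4.00, 4.36 and 3.79 on control replicates 1 to 4 and 4.05, 3.88, 4.07 and 3.95 on TCDD replicates 1 to 4. The TCDD values all lay within the control range. The change was -0.12 (SE 0.13, limma, adjusted p = 0.81), with an exact two-sided permutation p of 0.43. It was -0.22 without control replicate 4 and -0.03 without control replicate 3. Across these tests 0.029 is the smallest p that 4 against 4 arrays can give.

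Chgb encodes chromogranin B, the larger partner of chromogranin A in the granule core. It stood at 7.90, 7.82, 7.88 and 7.97 in controls and at 7.87, 7.98, 7.83 and 7.64 after TCDD. The lowest value belonged to TCDD replicate 4 and the other 3 TCDD arrays lay among the controls or just above them. The change was -0.06 (SE 0.08, adjusted p = 0.85 by limma).

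Scg2 encodes secretogranin II, the precursor of secretoneurin, and is abundant in gonadotrophs. Its control values were 7.39, 7.44, 7.43 and 7.41, an SD of 0.02 (n = 4), the smallest of any of the 10 genes in either group. After TCDD they were 7.40, 7.52, 7.36 and 7.13, an SD of 0.17 (n = 4). The group means differed by -0.06 (SE 0.09, adjusted p = 0.85 by limma), and TCDD replicate 4 was again the lowest array.

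Scg3, secretogranin III, binds cholesterol-rich granule membrane and holds chromogranin A there. It stood at 2.77, 2.80, 2.74 and 2.88 in controls and at 2.92, 2.78, 2.74 and 2.49 after TCDD. The control arrays lay inside the TCDD range, and the change was -0.06 (SE 0.09, adjusted p = 0.87 by limma).

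Vgf encodes a neuroendocrine precursor induced by nerve growth factor and cut into peptides such as TLQP-21. It was the most variable of the 10. The control arrays read 3.66, 3.63, 3.07 and 3.25, and the TCDD arrays 4.08, 2.96, 2.68 and 3.59. The TCDD group thus held both the highest and the 2 lowest arrays. Its means were 3.40 ± 0.29 (SD, n = 4) and 3.33 ± 0.63 (SD, n = 4), and the change was -0.08 (SE 0.30, adjusted p = 0.96 by limma). Its residual SD of 0.49 was larger than that of 93.7% of all genes.

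**Figure D2:**
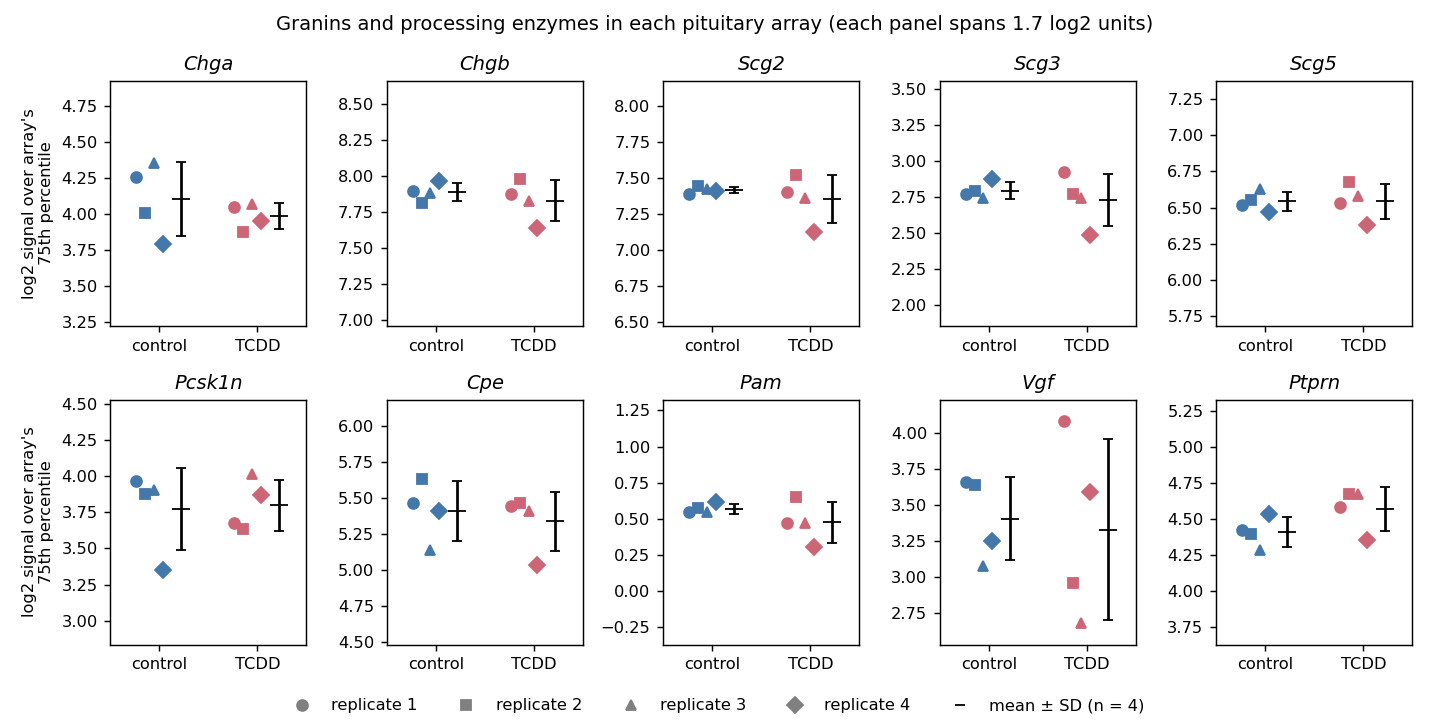
Each panel plots 1 gene on the 8 arrays as log2 signal over the array's 75th percentile, with control in blue and TCDD in red, marker shapes for replicate numbers and bars for mean ± SD (n = 4). The groups overlap in every panel, and TCDD replicate 4 (diamond) is the lowest TCDD array in 7 of the 10.

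Scg5 and Pcsk1n encode small proteins that bind the convertases. Scg5, or 7B2, is the chaperone and inhibitor of convertase 2. It read 6.52, 6.55, 6.63 and 6.47 in controls and 6.53, 6.67, 6.58 and 6.38 after TCDD. Both group means were 6.54, and the 95% interval of the change ran from -0.17 to 0.17 on the log2 scale.

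Pcsk1n encodes proSAAS, an inhibitor of convertase 1. It was at 3.97, 3.88, 3.91 and 3.35 in controls and at 3.68, 3.64, 4.01 and 3.87 after TCDD. Control replicate 4 stood below all 7 other arrays, and the other 3 controls lay within the TCDD range. The change was 0.02 (SE 0.15, adjusted p = 0.98 by limma) and became -0.12 without control replicate 4.

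Of the enzymes, Cpe encodes carboxypeptidase E, which also acts as a sorting receptor for some cargo. It read 5.46, 5.63, 5.14 and 5.41 in controls and 5.45, 5.46, 5.41 and 5.04 after TCDD. Control replicate 3 and TCDD replicate 4 were low, control replicate 2 was the highest, and the rest lay between 5.41 and 5.46. The change was -0.07 (SE 0.13, adjusted p = 0.90 by limma). It was 0.0022 without control replicate 2, -0.16 without control replicate 3 and 0.029 without TCDD replicate 4.

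Pam encodes the amidating enzyme, whose products in the pituitary include alpha-MSH. It stood at 0.54, 0.57, 0.54 and 0.62 in controls, a narrow span, and at 0.47, 0.65, 0.47 and 0.31 after TCDD. Of the TCDD arrays 3 lay below all controls and replicate 2 lay above them. The change was -0.10 (SE 0.08, adjusted p = 0.73 by limma, exact two-sided permutation p = 0.26).

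Ptprn encodes IA-2, a catalytically inactive phosphatase homologue that spans the granule membrane. It had the largest change of the 10. Control arrays read 4.42, 4.40, 4.28 and 4.54, and TCDD arrays 4.58, 4.67, 4.67 and 4.35. Of the TCDD arrays 3 lay above every control, and replicate 4 lay below 3 of them. The change was 0.16 (SE 0.09), or 1.12-fold higher, with a 95% interval from -0.05 to 0.37, and it did not pass (limma, adjusted p = 0.59; exact two-sided permutation p = 0.14). Without TCDD replicate 4 it was 0.23, and also did not pass. The unadjusted p fell under 0.05 in 3 of 19 alternatives: without TCDD replicate 4 (0.019), with normexp and quantile normalization (0.031) and with array weights (0.040). The adjusted p was 0.43, 0.41 and 0.35 there.

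Over the 10 genes the median log2 change was -0.06, with 2 higher and 8 lower, beside a median of 0.02 and 43.6% lower over all genes tested. In the tenth of genes with the highest signal the median was -0.01 and 54.7% were lower. The count of lower genes depended on single arrays: without TCDD replicate 4, 7 of the 10 were higher and 3 lower, and without control replicate 2, 5 were higher and 5 lower, with 0 passing in either. With quantile normalization alone, with normexp and quantile normalization together, and with median centring, 3, 4 and 1 of the 10 were higher.

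**Figure D3:**
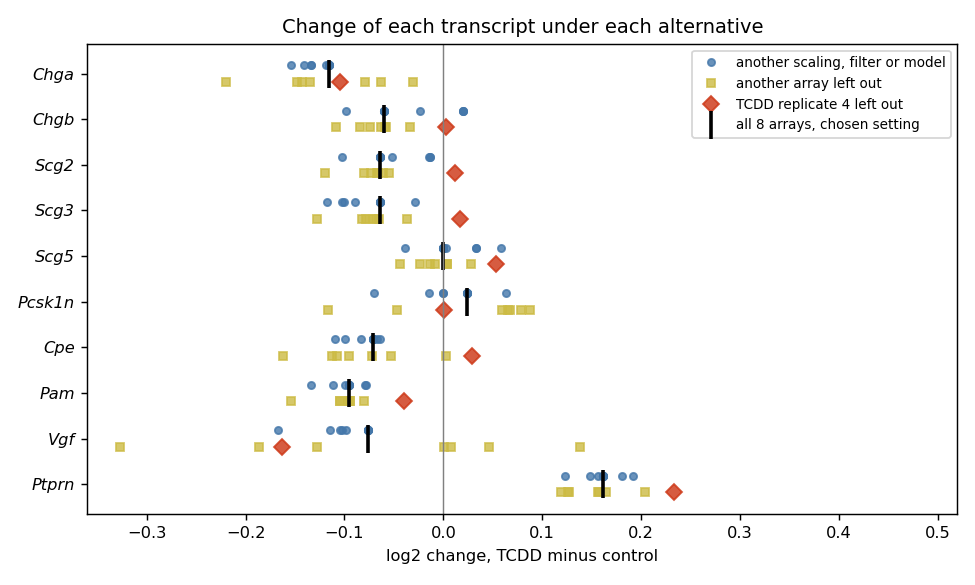
The log2 change of each transcript is plotted with all 8 arrays (black bar), under other scalings, filters and models (blue), with 1 array left out (yellow) and without TCDD replicate 4 (red). Chga and Pam stayed below 0 and Ptprn above 0 in all 19 alternatives, while the other 7 crossed 0 in at least 1. The filters, mean of probes, outlier spots kept, intensity trend and replicate block gave the same changes as the black bar. Only the other alternatives could therefore show a change of sign.

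The arrays differed from one another within a group in a way that many of the 10 genes shared. TCDD replicate 4 was the lowest TCDD array for 7 of them, namely Chgb, Scg2, Scg3, Scg5, Cpe, Pam and Ptprn, and TCDD replicate 2 was the highest for 6. Over all genes TCDD replicate 4 was the lowest of its group in 28.3%, and in the tenth with the highest signal in 46.5%. TCDD replicate 2 was the highest of its group in 26.6% of all genes and in 55.7% of those with the highest signal. The 75th percentile used for scaling was the lowest of its group on TCDD replicate 2 (765) and the highest on replicate 4 (897). In signal before this scaling, TCDD replicate 4 was still the lowest for the same 7 genes. TCDD replicate 2 was then the highest of its group only for Pam. The part of the scaling in the pattern was not tested. The SD was larger after TCDD than in controls for 7 of 10 genes, beside 53.4% of all genes.

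**Figure D4:**
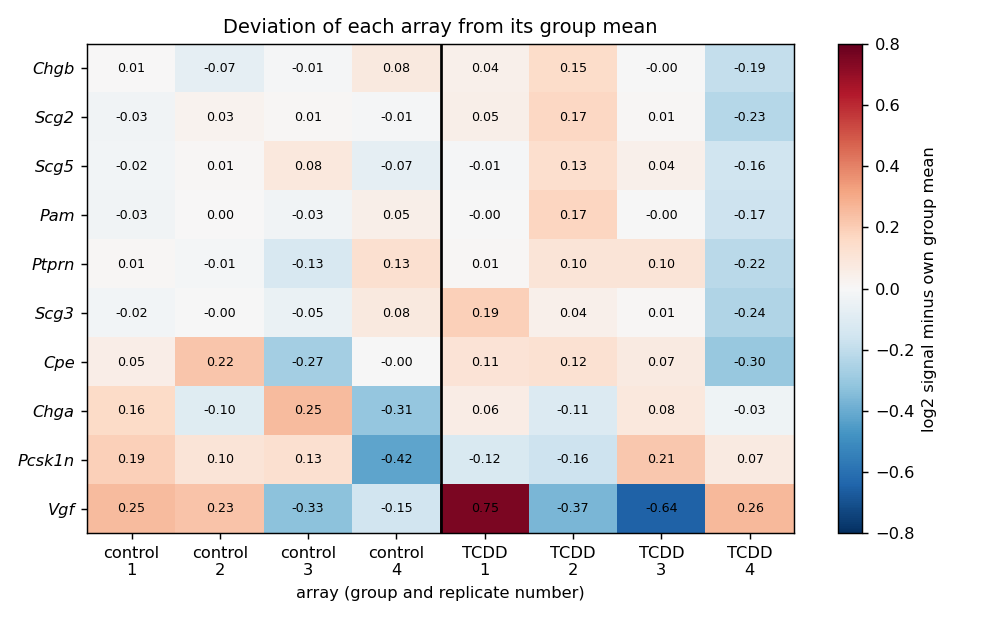
Each cell gives a gene's log2 signal on 1 array minus the mean of its own group of 4, red above and blue below. The 7 rows from Chgb to Cpe are low on TCDD replicate 4, Chga and Pcsk1n are low on control replicate 4 (-0.31 and -0.42), and Vgf follows neither.

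To describe this sharing, each array's deviation from its group mean was correlated between genes over the 8 arrays. Both genes of a pair come from the same hybridisation and share any effect on the whole array. Over 45 pairs the median Pearson r was 0.28, with a range of -0.55 to 0.94. Pairs of other genes, such as equally bright ones, were not correlated, so these values have no background to be set against. Without TCDD replicate 4 the median was 0.03, and without control replicate 4 it was 0.19. The pair with the highest value was Scg2 with Pam (r = 0.94, Spearman rho = 0.69), followed by Chgb with Pam (r = 0.91, rho = 0.74) and Scg2 with Scg5 (r = 0.87, rho = 0.74). Without TCDD replicate 4 these were 0.88, 0.81 and 0.72, while Scg2 with Scg3 went from 0.75 to 0.26 and Scg2 with Ptprn from 0.71 to 0.27.

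Chga and Pcsk1n formed a pair of their own. They deviated together (r = 0.77, rho = 0.81), and r was 0.50 without control replicate 4. Chga did not follow Chgb (r = -0.21), and Pcsk1n ran against it (r = -0.55). Both were the lowest in their group on control replicate 4 and on TCDD replicate 2. On those arrays the markers of the posterior lobe and neural tissue stood at -0.57 and -0.43 relative to the mean of the 8 arrays, the lowest of each group. Gonadotroph markers stood at -0.21 and -0.32 and leukocyte markers at -0.03 and -0.47, also the lowest of each group, and erythrocyte markers at 0.21 and 0.77, the highest of each. Corticotroph and melanotroph markers stood at -0.36 and -0.39, the lowest of each group. Their summed level, most of it Pomc, was 397 and 419 on these arrays, within the range of the others (363 to 426). The remaining lists were not at the same extreme in both groups. Lactotroph markers stood at 0.04 and 0.0057, somatotroph markers at -0.02 and 0.04, and thyrotroph markers at -0.05 and 0.71. Folliculostellate markers stood at -0.37 and -0.06, and endothelial markers at 0.03 and -0.14. Unlike the deviations of Chga and Pcsk1n from their own group mean, these marker values include the difference between the groups. Erythrocyte markers had group means of -0.50 in controls and 0.50 after TCDD, and posterior lobe and neural markers 0.15 and -0.15. Control replicate 4 and TCDD replicate 2 also had the lowest 75th percentile of signal in their groups (805 and 765). The share of spots well above background was the lowest of each group there too, at 71.1% and 71.4%. The part of the markers and of these array measures in the pattern was not tested.

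By the same measure, the genes most like the mean deviation of the 10 were found. They were Mrpl27 (r = 0.97, rho = 0.98), Aspm (r = 0.96), St6galnac4 (r = 0.96), Eps8 (r = 0.96) and Bltp2 (r = 0.95). The 3 that ran most against this mean were Plk2, Car11 and Cyfip2 (r = -0.98 each). The 10 members themselves had an r with it from 0.08 (Pcsk1n) to 0.75 (Cpe), so it does not stand for each of them. On TCDD replicate 1 the mean was 0.11, where Vgf deviated by 0.75. Picked as the extremes of 17361 genes over 8 arrays, such values describe these arrays alone. Without TCDD replicates 1 and 4, the arrays farthest from the median, Mrpl27 stood at 0.90 and Plk2 at -0.94.

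Other cell types were read by marker lists, with sums of linear signal relative to the 75th percentile. All 4 of 4 erythrocyte markers were higher after TCDD, with a median log2 change of 1.04, 0 of them past the adjusted threshold (4 at an unadjusted p under 0.05, limma), and their sum ran from 241 to 444 in controls and from 351 to 535 after TCDD. Of the 7 measured of 8 posterior lobe and neural markers 4 were lower (sums 2.58 to 6.55 and 2.66 to 4.13), with Gfap not measured. Of these 7, 0 passed and 1, Avp at -1.41, had an unadjusted p under 0.05 (limma). Of the 4 gonadotroph markers, all measured, 2 were lower and 0 passed. Those 2, Fshb at -0.71 and Gnrhr at -0.52, had an unadjusted p under 0.05 (limma). The gonadotroph markers summed to 41.3 to 66.6 in controls and 50.7 to 61.2 after TCDD, and the lactotroph markers, 2 of 2 measured, to 311 to 331 and 288 to 332. Most of the gonadotroph sum was Lhb, at 5.66 in controls beside Fshb at 1.55 and Gnrhr at 0.59. Most of the lactotroph sum was Prl, at 8.17 beside Drd2 at 4.87. Such sums therefore hardly show a change in the dimmer markers. Of the 4 corticotroph and melanotroph markers 3 were measured, and these 3 were lower. The 2 somatotroph and the 2 lactotroph markers were lower, and the 2 thyrotroph markers higher. Of the 3 folliculostellate markers 2 were lower, as were 2 of the 3 endothelial ones. The 2 leukocyte markers measured, of 3, were lower. In each of these lists 0 passed and 0 had an unadjusted p under 0.05 (limma). The part of these shifts in the values of the 10 genes was not tested.

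Beyond the 10 genes, a list of 31 others that form granules or process and modify hormones was read, of which 27 were measured. With limma 0 of the 27 passed the adjusted threshold (3 at an unadjusted p under 0.05), 14 were higher and 13 lower, and the median log2 change was 0.02, that of all genes. In 2 of them the groups did not overlap, Cpm and Atp6ap2, both higher after TCDD. Of all genes, 5.19% had every TCDD value above every control, and 7.10% did not overlap in either direction.

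**Figure D5:**
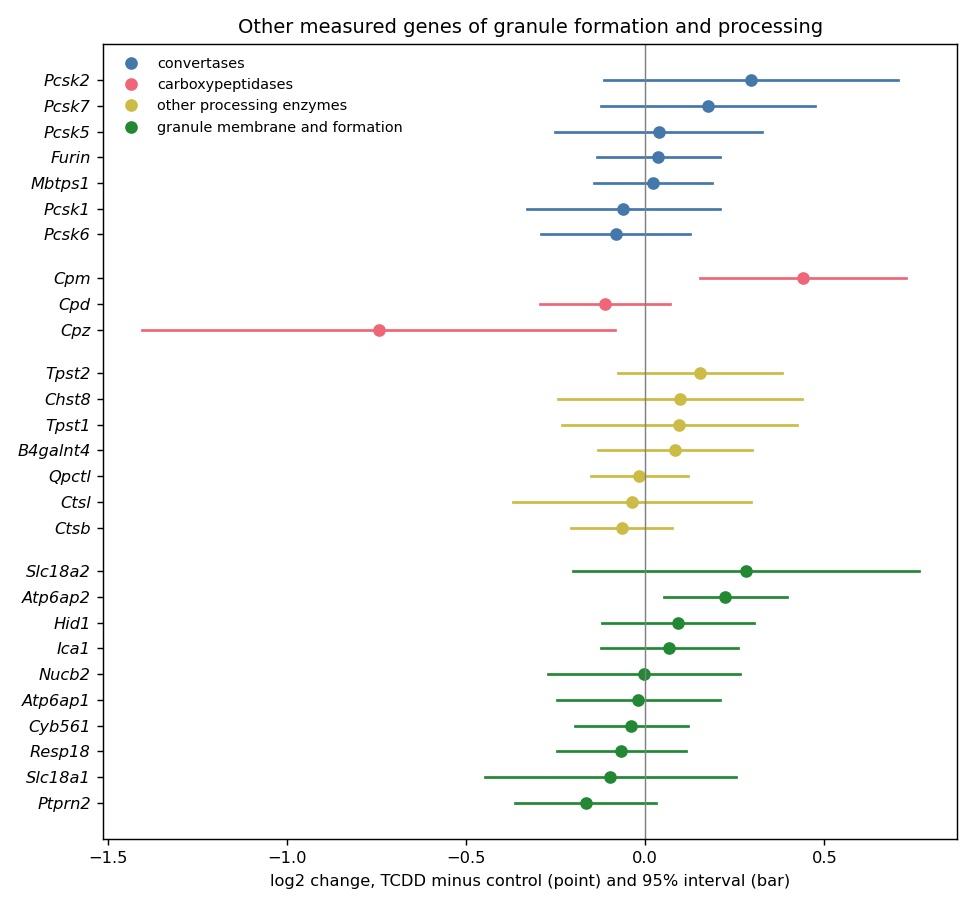
Points give the log2 change, TCDD minus control, and bars the 95% interval from limma for the 27 other genes, coloured by role. The intervals of Cpm, Cpz and Atp6ap2 leave out 0 before adjustment for the number of genes, and all other intervals cross it.

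Of the 7 convertases, 5 were higher and 2 lower, of which Furin, Mbtps1 and Pcsk5 fell on the other side of 0 with median centring, and Furin and Mbtps1 also with normexp and quantile normalization. Pcsk1, the convertase that makes ACTH from the Pomc product, stood at -0.06 (SE 0.12), and Pcsk2, which takes the chain on to alpha-MSH, at 0.30 (SE 0.18). Pcsk2 read -0.17, 0.13, 0.23 and -0.20 in controls and 0.37, 0.14, 0.72 and -0.07 after TCDD, and the groups overlapped. Pcsk7, a widely expressed convertase, differed by 0.17 (SE 0.13), or by 0.016 with normexp and quantile normalization, and Pcsk6 by -0.08 (SE 0.09) with its second probe at 0.06.

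Among the 3 carboxypeptidases, Cpz and Cpm had the largest differences of the list. Cpm, a membrane carboxypeptidase, read -5.47, -5.99, -5.70 and -6.04 in controls and -5.28, -5.37, -5.36 and -5.41 after TCDD. The 4 TCDD arrays lay above the controls by a small gap, for a change of 0.44 (SE 0.12, adjusted p = 0.31 by limma). Its signal was dim, with 1 of the 4 controls not well above background, and with normexp and quantile normalization the change was 0.08.

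Cpz, a secreted carboxypeptidase of the extracellular matrix, read 2.03, 1.96, 1.59 and 1.80 in controls. After TCDD it read 2.00, 0.55, 0.95 and 0.90. TCDD replicate 1 lay with the controls and the other 3 below them all, for a change of -0.74 (SE 0.29, adjusted p = 0.42 by limma). Without TCDD replicate 1 it was -1.05, with an adjusted p of 0.14. Cpd, the carboxypeptidase of the trans-Golgi network, stood at -0.11 (SE 0.08).

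Of the 7 measured of 9 other modifying enzymes 4 were higher and 3 lower, between -0.07 and 0.15, with Qpctl at -0.02, above 0 with normexp and quantile normalization, and at 0.25 by its second, dimmer probe. These ends were Ctsb, a lysosomal cathepsin, and Tpst2, a tyrosine sulphotransferase (SE 0.06 and 0.10). Chst8, which sulphates the sugars of luteinising hormone, stood at 0.10 (SE 0.15), and the cathepsin Ctsl at -0.04 (SE 0.14).

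Of the 10 measured of 12 genes of the granule membrane and granule formation 4 were higher and 6 lower, with Atp6ap1 above 0 with normexp and quantile normalization. Atp6ap2, an accessory subunit of the proton pump that acidifies granules, read 1.29, 1.38, 1.16 and 1.36 in controls and 1.41, 1.63, 1.54 and 1.51 after TCDD. Its groups did not overlap, and the change of 0.22 (SE 0.07) did not pass (limma, adjusted p = 0.37; exact two-sided permutation p = 0.029). Slc18a2, the vesicular monoamine transporter, stood at 0.28 (SE 0.21), and its relative Slc18a1 at -0.10 (SE 0.15).

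Ptprn2, the paralogue of Ptprn in the granule membrane, stood on the other side of 0. It read 3.75, 3.69, 3.59 and 3.87 in controls and 3.47, 3.68, 3.64 and 3.45 after TCDD, a change of -0.17 (SE 0.09, adjusted p = 0.55 by limma). Neither paralogue passed, the difference between them was not tested, and the second, dimmer probe of Ptprn2 stood at 0.11.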

How the data were processed

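Cy3-labelled RNA was hybridised to 8 one-colour Agilent rat arrays, per the labels' protocols. The deposited intensities were quantified for each array on its own with Feature Extraction 10.7.1.1, after background subtraction and detrending, per the file headers. The authors also deposited a table of linear intensities for the same arrays, with a median of 56.3 in every column; how it was scaled is not given in the sources used here, and it served as an alternative.

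Log2 processed signal minus each array's 75th percentile was taken, outlier spots were left out and spots of a probe averaged. Names were updated through RefSeq (GRCr8). Probes well above background on 4 or more arrays were kept, the brightest per gene. Groups were compared with limma 3.58.1 in R 4.3.3 (lmFit and eBayes with a term for group, two-sided). Benjamini-Hochberg adjustment covered all 17361 genes, at 0.05. Single genes were also given an exact permutation test over 70 assignments. The fit was tested on simulated data. Same-numbered replicates were not paired (correlations of -0.10 to -0.02).

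The members and lists were chosen with earlier results of these data known. Of the other list, genes past the threshold and up to 2 rises and 2 falls per role were named. The 5 genes most and 3 least like the mean deviation of the members were added.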

Additional observations from a re-analysis of the deposited data

Results flagged for a closer look

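In 74 groups of 4 arrays (10 members and 27 other genes, in each group) the gap between an extreme array and its neighbour was set against the whole range. Past the critical ratio of 0.829 were 6 of the 74, where chance gives about 5% of groups. The 74 share the same 8 arrays and are not independent. Among the members, Pcsk1n was low on control replicate 4 (0.859) and Cpe on TCDD replicate 4 (0.876). Among the others, Mbtps1 was low (0.864) and Hid1 high (0.928) on control replicate 4, Chst8 was high on control replicate 2 (0.931) and Slc18a1 low on control replicate 3 (0.928).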

How the results depend on the processing

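Under 19 alternatives 0 members and 0 of the other list passed, and the median change of the members stayed between -0.10 and 0.0075. Of 190 changes of single members 164 kept their sign and 26 did not, and the cause was not tested. Other filters, the mean of probes, keeping outlier spots, the intensity trend and the replicate block left every member's change as it was. Their unchanged signs are among the 164 and say nothing about stability. With quantile normalization Chgb stood at 0.020, Scg5 at 0.033 and Pcsk1n at -0.00020. With normexp and quantile normalization Chgb was at 0.020 and Scg5 at 0.058. With median centring Pcsk1n was at -0.014, and with array weights Scg5 was at 0.0022 and Pcsk1n at -0.070. In the deposited table they were at 0.033 and -3.6e-05, and Chgb at 0.020. These values lie close to those with quantile normalization, and the same genes changed sign in each, so these alternatives largely repeat one another. Leaving out 1 array gave -0.22 to -0.031 for Chga, -0.15 to -0.040 for Pam, 0.12 to 0.23 for Ptprn, -0.11 to 0.0031 for Chgb, -0.12 to 0.012 for Scg2, -0.13 to 0.017 for Scg3, -0.044 to 0.054 for Scg5, -0.12 to 0.088 for Pcsk1n, -0.16 to 0.029 for Cpe and -0.33 to 0.14 for Vgf. Over all genes 14 passed with all arrays, 0 to 11 with 1 left out, 1 with quantile normalization, 0 with normexp and quantile normalization together (1923 at an unadjusted p under 0.05), 9 with median centring, 4 with an intensity trend, 30 with array weights and 1 in the deposited table. The fit with the replicate number as a block called 0 genes (1514 at an unadjusted p under 0.05). Reading a member by another of its probes was not run, since each has 1. The number of arrays limits precision. Vgf had the widest interval of the members and the largest spread between arrays of a group, and whether that spread is technical was not tested.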
